A study of Homo sapiens with 4 samples.

Results

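The genes described here are 33 of the 58825 genes counted in LoVo cells, namely 18 enzymes that build cholesterol from acetyl units, 5 regulators of SREBP with 1 sterol carrier, and 9 enzymes that make or modify fatty acids. They were listed by the role of their products, were found by their symbols, and are not a complete roll of either pathway. Of the 33, 32 passed the filter on low counts and were tested, and the remaining one, CYP51A1, had 0 counts in all 4 libraries. LoVo is a line established from a colon adenocarcinoma, and the study compared MET+ cells, labelled as wild type and as a GFP control, with MET-KO cells in which the receptor tyrosine kinase gene MET was knocked out. Each group had 2 libraries labelled as biological replicates, and all the cells were kept in DMEM with fetal bovine serum, a source of outside cholesterol. Knockout cells were picked as single clones, and whether both MET-KO libraries came from the same clone is not given in the sources used here. Any difference between a clone and the control cells other than the knockout cannot be told apart from it. The Y-linked genes given below had counts only in MET-KO cells, and whether the groups differ in origin or chromosome content was not tested. RNA was read by the QuantSeq 3' method, in which a polyadenylated transcript yields 1 fragment close to its 3' end whatever its length. Levels are given in CPM, counts scaled to a common library size (1e+06) after TMM normalization, and every log2 fold change is MET-KO over MET+. A gene was called at an adjusted p under 0.05, where p is that of the quasi-likelihood test in edgeR and the Benjamini-Hochberg adjustment spans all 13801 tested genes.

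Cells make cholesterol from acetyl-CoA by way of mevalonate, the isoprenoid farnesyl diphosphate, squalene and lanosterol, and they make fatty acids from the same acetyl-CoA by carboxylation and chain extension. Transcription of both sets of enzymes is driven by the SREBP proteins, encoded by SREBF1 and SREBF2, which are held in the endoplasmic reticulum by SCAP and the INSIG proteins while sterols are plentiful, and are cut free in the Golgi when sterols run low. SREBP binds the sterol regulatory element and is known to act together with NF-Y, which binds the CCAAT box.

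Promoter sequences of 3 regulators and of 3 strongly expressed enzymes are printed so that these elements can be seen beside the levels of the genes. They come from RefSeq on build GRCh38.p14, were cut to the part that lies before both the RefSeq and the GENCODE start of the gene, run 5′ to 3′ on the strand of the gene, and carry matches in capitals. The motifs searched, on both strands, were TCACNCCAC for the sterol regulatory element and CCAAT for the CCAAT box, which reads ATTGG on the opposite strand, and no match of one overlapped a match of the other in the stretches shown. SREBF2 (chr22:41832855-41833078, plus strand) held a match to each, HMGCS1 (chr5:43313513-43313662, minus strand) and INSIG1 (chr7:155297628-155297775, plus strand) held 1 CCAAT box each, SCD (chr10:100346983-100347123, plus strand) held 2, MSMO1 (chr4:165327419-165327622, plus strand) held 3, and INSIG2 (chr2:118088221-118088451, plus strand) held neither motif.
SREBF2: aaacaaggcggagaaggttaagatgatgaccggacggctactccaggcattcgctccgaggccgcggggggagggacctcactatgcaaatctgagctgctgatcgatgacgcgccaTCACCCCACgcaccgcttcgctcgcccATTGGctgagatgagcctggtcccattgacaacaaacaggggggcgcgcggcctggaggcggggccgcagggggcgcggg
HMGCS1: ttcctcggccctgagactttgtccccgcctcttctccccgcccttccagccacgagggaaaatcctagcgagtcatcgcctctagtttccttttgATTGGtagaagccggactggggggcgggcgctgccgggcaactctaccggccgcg
MSMO1: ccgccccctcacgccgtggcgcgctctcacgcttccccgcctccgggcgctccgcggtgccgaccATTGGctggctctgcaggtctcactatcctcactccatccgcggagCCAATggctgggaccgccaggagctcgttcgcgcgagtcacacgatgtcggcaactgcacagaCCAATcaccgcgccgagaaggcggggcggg
SCD: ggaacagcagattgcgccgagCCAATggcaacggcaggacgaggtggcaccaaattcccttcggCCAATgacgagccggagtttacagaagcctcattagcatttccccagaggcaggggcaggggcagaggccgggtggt
INSIG1: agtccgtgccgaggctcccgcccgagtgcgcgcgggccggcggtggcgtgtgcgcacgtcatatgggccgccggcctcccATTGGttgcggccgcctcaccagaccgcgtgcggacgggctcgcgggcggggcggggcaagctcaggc
INSIG2: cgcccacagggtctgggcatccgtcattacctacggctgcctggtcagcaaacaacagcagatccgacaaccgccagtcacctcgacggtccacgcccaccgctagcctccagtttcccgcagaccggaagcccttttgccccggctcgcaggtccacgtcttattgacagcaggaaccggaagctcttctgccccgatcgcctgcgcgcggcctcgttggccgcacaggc

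Windows of 250 bases before to 50 bases after a RefSeq start were found for 29 of the 33 genes, and not for ACAT2, FDFT1, SQLE and FASN. A CCAAT box lay in at least 1 window of 21 of these 29 genes (72.4%), against 43.0% of the 9908 tested genes and 39.7% of the 27305 genes with a window. Among the genes called lower in MET-KO cells it was present in 19 of 22, and among the other 7 in 2, FADS2 and TM7SF2. These 7 include CYP51A1, which held none and was not tested for a difference. Whether the motif goes with the falls was not tested. MVK and NSDHL had the most, with 5 each, followed by MSMO1 with 4 in its whole window. The 3 lower genes without one were SREBF1, ELOVL6 and LPIN1. TCACNCCAC was found in 1 of the 29, SREBF2, and in 1.39% of the tested genes. These are matches of letters within a short window, and other spellings of the element were not searched.

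MET itself (chromosome 7) had 2794 and 3272 counts in MET+ against 861 and 965 counts in MET-KO cells, a log2 fold change of -1.96 (SE 0.09, adjusted p = 1.49e-18). Libraries held 8429142 to 10286552 counts, and a gene at 0 counts could still have had 0.276 to 0.362 CPM (3 counts, counting error only). Of 10 markers of colorectal epithelium, 9 reached 10 counts in at least 1 library, with CDX1 at 0 in all 4, and their summed level was 8083 and 8039 CPM in MET+ against 6852 and 6084 CPM in MET-KO cells. KRT18 made up most of this sum, with 6170 and 5849 CPM in MET+ and 5118 and 4623 CPM in MET-KO cells. Single epithelial markers differed sharply between the groups. CEACAM5 had 392 and 487 counts in MET+ and 0 in both MET-KO libraries. VIL1 went from 43 and 58 counts to 3 in each MET-KO library, and LGALS4 from 89 and 107 counts to 1 in each. KRT20 had 0 in both MET+ and 27 and 28 counts in the MET-KO libraries. CDX2 was also higher there, at 1477 and 1338 counts against 525 and 648. Markers of fibroblasts summed to 1.64 to 4.23 CPM, of leukocytes to 0.587 to 1.64 CPM and of endothelium to 0 to 0.922 CPM, with PTPRC and CD3E at 0. Genes of the Y chromosome differed too, as RPS4Y1 had 0 CPM in both MET+ libraries and 511 and 462 CPM in the MET-KO libraries. EIF1AY and DDX3Y were likewise at 0 in both MET+ libraries. In the MET-KO libraries EIF1AY had 44.7 and 46.5 CPM and DDX3Y 40.3 and 44.8 CPM. Whether the groups differ in origin or chromosome content was not tested, nor was the part of these differences in the results below. Fewer cells of a type and less RNA per cell cannot be told apart in these bulk libraries.

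Nearly the whole sterol pathway and most of the lipogenic enzymes were lower in MET-KO cells. Of the 32 tested genes, 26 fell, 1 rose (FADS2) and 5 were not called (PMVK, TM7SF2, SCAP, INSIG2 and FADS1). Over all tested genes 54.1% were called, 26.9% lower and 27.2% higher, so that calls were common in this comparison but evenly split in direction. The median log2 fold change of the 32 genes was -0.97 (range -2.47 to 1.82), against 0.01 for all tested genes (quartiles -0.43 and 0.55). Of the 26 genes that fell, 15 did so by over 2-fold, 7 by 1.5- to 2-fold and 4 by less. Together with FADS2, 16 of the 32 were called with a log2 fold change of at least 1 in size, against 24.3% of all tested genes. Both MET-KO libraries lay below both MET+ libraries for 27 genes and above them for 4, and the groups overlapped for 1, INSIG2. The share of all tested genes whose groups lay apart was not computed, so these counts alone do not set the genes apart from others. Among the 86 tested genes of the related lists described below, the MET-KO libraries lay below for 46 and above for 24, and the groups overlapped for 16. Permuting 2 libraries against 2 exactly cannot give a two-sided p under 0.333 for any one gene, and the adjusted p therefore depends on the variance that edgeR shares between genes.

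**Figure D1:**
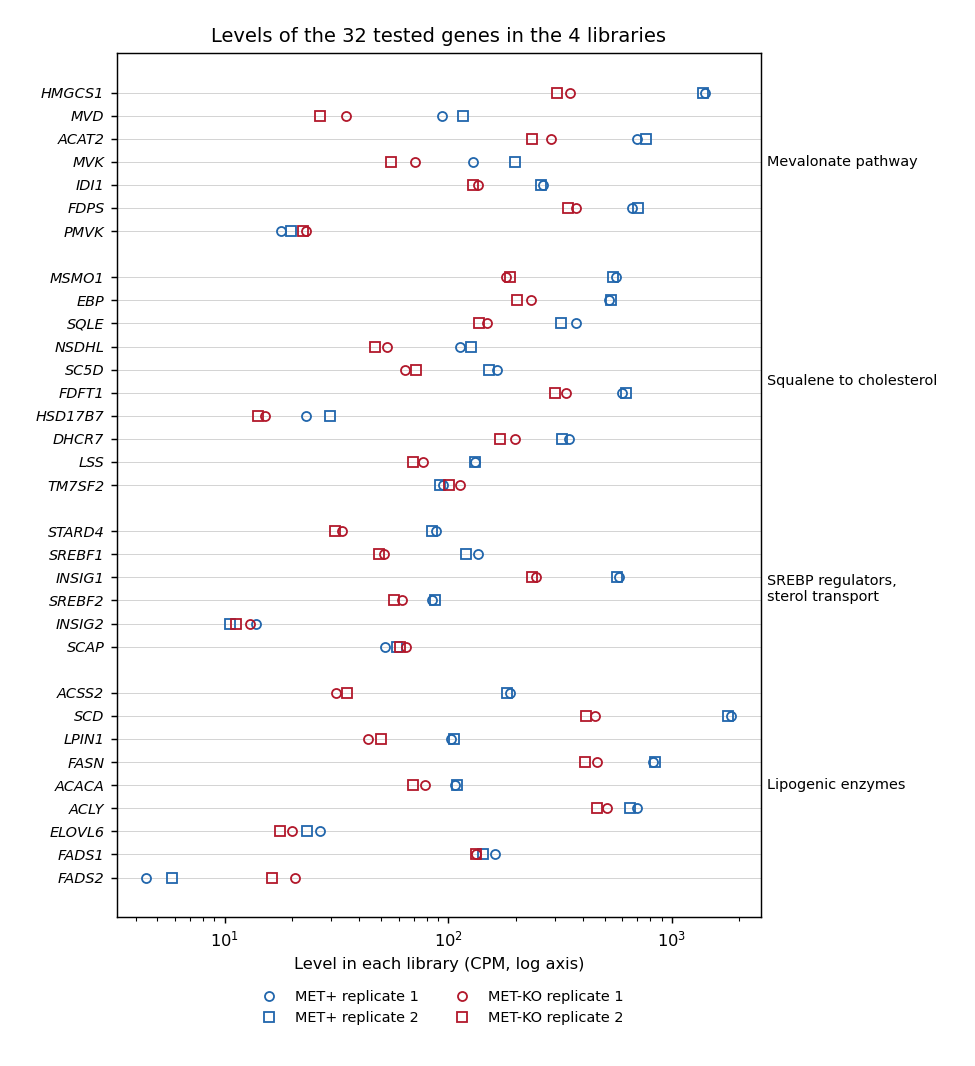
Level of each of the 32 tested genes (rows, grouped by role) in CPM on a log axis, with circles for replicate 1 and squares for replicate 2 of MET+ (blue) and MET-KO (red) cells. The red symbols lie to the left of the blue ones for 27 genes, and FADS2, at the bottom, has the widest gap in the other direction. The share of all tested genes whose groups lay apart in this way was not computed.

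Summed over all 33 genes, the level was 11112 and 11096 CPM in the MET+ libraries and 4923 and 4469 CPM in the MET-KO libraries. The replicates of each group lay close together and the groups far apart, and the MET-KO mean was 42.3% of the MET+ mean. As a share of all counts as deposited, the genes took 1.09% and 1.05% of the MET+ libraries and 0.496% and 0.475% of the MET-KO libraries. SCD and HMGCS1 carried much of the sum, and without them the MET-KO level was 49.8% of the MET+ level. The mevalonate enzymes were at 35.7% of their MET+ sum, the lipogenic enzymes at 43.0%, the enzymes from squalene to cholesterol at 46.9% and the regulators and sterol carrier at 48.6%. The order of the most abundant transcripts changed as well, from SCD, HMGCS1 and FASN in MET+ cells to ACLY, FASN and SCD in MET-KO cells by the group means. FASN and SCD did not differ beyond their spread in MET-KO cells, with FASN above SCD in the first library (462 and 453 CPM) and just below it in the second (409 and 412 CPM).

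**Figure D2:**
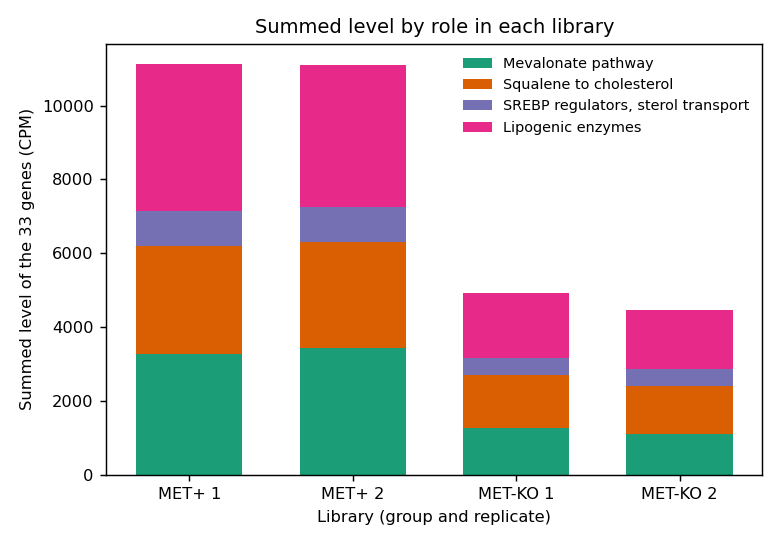
Summed level in CPM (bars from 0) of the 33 genes in each of the 4 libraries, split by role. The MET+ bars reach 11112 and 11096 CPM and the MET-KO bars 4923 and 4469 CPM, and each of the 4 roles is smaller in the MET-KO bars.

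Of the 7 enzymes of the mevalonate pathway, 6 fell (85.7% called, against 54.1% of all tested genes), with a median log2 fold change of -1.38. HMGCS1 (ENSG00000112972, chr5:43289395-43313512, minus strand), the cytosolic HMG-CoA synthase, had 1404 and 1372 CPM in MET+ against 351 and 305 CPM in MET-KO cells. It was the most abundant of the sterol enzymes in MET+ cells, its groups were well separated, and it fell 4.23-fold (log2 fold change -2.08, SE 0.10, adjusted p = 7.39e-19). MVD (ENSG00000167508, chr16:88651935-88663161, minus strand), which decarboxylates mevalonate diphosphate, had 94.0 and 117 CPM in MET+ against 34.9 and 26.8 CPM in MET-KO cells. The replicates of each group lay closer together than the groups did (log2 fold change -1.78, SE 0.12, adjusted p = 3.72e-14). ACAT2 (ENSG00000120437, chr6:159760328-159779055, plus strand), the cytosolic thiolase that joins acetyl-CoA units at the entry to the pathway, had 695 and 765 CPM in MET+ against 287 and 236 CPM in MET-KO cells. Its groups did not overlap (log2 fold change -1.48, SE 0.10, adjusted p = 1.07e-14). Mevalonate kinase, MVK (ENSG00000110921, chr12:109573255-109598117, plus strand), had 129 and 199 CPM in MET+ against 71.2 and 55.3 CPM in MET-KO cells. The MET+ libraries were uneven for this gene, and its log2 fold change of -1.38 (SE 0.13, adjusted p = 1.02e-10) ranged from -1.65 to -1.04 when each library was left out in turn.

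Both enzymes at the end of this section had smaller log2 fold changes. The isopentenyl diphosphate isomerase gene IDI1 had 262 ± 4.43 CPM (SD, n = 2) in MET+ against 132 ± 4.65 CPM (SD, n = 2) in MET-KO cells, and its log2 fold change was -0.99. FDPS, which makes farnesyl diphosphate, had 685 ± 30.6 CPM against 357 ± 19.1 CPM in the same order, and its log2 fold change was -0.94. Both passed the threshold, with adjusted p of 4.09e-11 and 1.2e-10. PMVK, the phosphomevalonate kinase between MVK and MVD, was the exception, at 17.9 and 19.8 CPM in MET+ against 23.1 and 22.5 CPM in MET-KO cells. Its MET-KO values lay just above its MET+ values and did not pass the threshold (log2 fold change 0.27, SE 0.15, adjusted p = 0.134). PMVK was also the least abundant of the 7. Its promoter window held no CCAAT box, while HMGCS1, MVK, MVD, IDI1 and FDPS had 2 to 5 in the window with the most, and ACAT2 had no window. Whether the motif goes with the falls was not tested. Outside this section, SREBF1, ELOVL6 and LPIN1 fell without a CCAAT box, and TM7SF2 and FADS2 held one and did not fall.

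Of the 11 genes from squalene to cholesterol, 10 were tested and 9 fell (90% called), with a median log2 fold change of -1.08. MSMO1 (ENSG00000052802, chr4:165327623-165343160, plus strand), the sterol C4-methyl oxidase whose promoter is printed above, had 564 and 547 CPM in MET+ against 182 and 189 CPM in MET-KO cells. Replicates were nearly equal within each group and apart between them, with the largest fall of the 10 (log2 fold change -1.58, SE 0.09, adjusted p = 2.22e-16). NSDHL (ENSG00000147383, chrX:152830967-152869729, plus strand), which acts after MSMO1 in removing the C4 methyl groups, had 113 and 127 CPM in MET+ against 53.1 and 47.0 CPM in MET-KO cells. The groups did not overlap (log2 fold change -1.26, SE 0.11, adjusted p = 3.79e-12). HSD17B7, the ketosteroid reductase of the same demethylation steps, was low throughout, at 23.2 and 29.5 CPM in MET+ against 15.2 and 14.1 CPM in MET-KO cells. Its fall was smaller (log2 fold change -0.85, SE 0.16, adjusted p = 3.81e-05), and the counts on its pseudogenes came to at most 9.15% of its own in any library.

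SQLE (ENSG00000104549, chr8:124998497-125022283, plus strand), the squalene epoxidase that performs the first oxygenation of the branch, had 371 and 319 CPM in MET+ against 148 and 137 CPM in MET-KO cells. The lower MET+ library was still more than double the higher MET-KO library (log2 fold change -1.27, SE 0.10, adjusted p = 2.67e-13). The sterol isomerase EBP (ENSG00000147155, chrX:48521158-48528716, plus strand) had 524 and 535 CPM in MET+ against 235 and 202 CPM in MET-KO cells. It was again clearly separated by group (log2 fold change -1.28, SE 0.09, adjusted p = 1.42e-13). SC5D (ENSG00000109929, chr11:121292453-121308694, plus strand), the lathosterol oxidase that follows EBP, had 165 and 152 CPM in MET+ against 64.1 and 71.8 CPM in MET-KO cells. Both MET-KO values lay below both MET+ values (log2 fold change -1.22, SE 0.10, adjusted p = 2e-12). The other enzymes that fell did so by under 2-fold. The squalene synthase gene FDFT1 went from 609.8 ± 17.1 to 317 ± 26.1 CPM (SD, n = 2 each), with a log2 fold change of -0.94 (adjusted p = 1.38e-10), and the lanosterol synthase gene LSS from 131 ± 0.565 to 73.0 ± 5.39 CPM (SD, n = 2 each), with a log2 fold change of -0.85 (adjusted p = 6.74e-09). DHCR7, which reduces 7-dehydrocholesterol to cholesterol, went from 334 ± 17.9 to 185 ± 20.5 CPM (SD, n = 2 each), with a log2 fold change of -0.85 (adjusted p = 2.58e-09).

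Both remaining genes act in turn at carbon C14 of lanosterol and its product. TM7SF2, a sterol C14 reductase, had 94.8 and 91.4 CPM in MET+ against 113 and 101 CPM in MET-KO cells. Its MET-KO values were the higher ones by a small margin that did not pass the threshold (log2 fold change 0.20, SE 0.10, adjusted p = 0.0891). CYP51A1, the lanosterol C14 demethylase, is listed at 0 counts in all 4 libraries. In GENCODE 29, 98.4% of its last 500 exonic bases are shared on the same strand with AC000120.2, which is also listed at 0, and how reads on both genes were assigned is not given in the sources used here. The value of CYP51A1 therefore gives no level for this step.

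Of the 5 SREBP regulators and the sterol carrier STARD4, 4 fell and 2 were not called, and the differences between paralogs given below were not tested. The share called, 66.7% of these 6 genes, was not far from the 54.1% of all tested genes. SREBF1 (ENSG00000072310, chr17:17810399-17837002, minus strand) had 136 and 119.6 CPM in MET+ against 51.5 and 49.1 CPM in MET-KO cells. It fell 2.54-fold (log2 fold change -1.35, SE 0.10, adjusted p = 4.99e-13). SREBF2 (ENSG00000198911, chr22:41833079-41907308, plus strand), whose product mainly drives the sterol enzymes, had 84.6 and 87.2 CPM in MET+ against 62.1 and 57.0 CPM in MET-KO cells. Its groups did not overlap either, but the fall was 1.44-fold (log2 fold change -0.53, SE 0.10, adjusted p = 5.64e-05). Within each library, the ratio of the SREBF1 level to the SREBF2 level was 1.61 and 1.37 in MET+ and 0.830 and 0.861 in MET-KO cells, so the order of the pair was reversed. Counts do not separate the SREBP-1a and SREBP-1c forms made from SREBF1.

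INSIG1 (ENSG00000186480, chr7:155297776-155310235, plus strand), which retains SCAP in the endoplasmic reticulum and is itself a target of SREBP, had 582 and 570.0 CPM in MET+ against 248 and 237 CPM in MET-KO cells. The replicates nearly coincided and the fall was 2.38-fold (log2 fold change -1.25, SE 0.09, adjusted p = 8.86e-14), on a chromosome whose tested genes had a median log2 fold change of 0.50. INSIG2 (ENSG00000125629, chr2:118088452-118110997, plus strand), its paralog, had 13.9 and 10.6 CPM in MET+ against 13.0 and 11.2 CPM in MET-KO cells. The values of the groups overlapped (log2 fold change -0.01, SE 0.20, adjusted p = 0.985), with 103 to 133 counts per library behind them. INSIG1 exceeded INSIG2 by 42.0 and 54.0 times in MET+ and by 19.0 and 21.1 times in MET-KO cells. SCAP (ENSG00000114650, chr3:47413694-47477126, minus strand), the escort of SREBP to the Golgi, had 52.2 and 59.1 CPM in MET+ against 64.5 and 60.6 CPM in MET-KO cells. This small difference did not pass the threshold (log2 fold change 0.17, SE 0.11, adjusted p = 0.209). STARD4 (ENSG00000164211, chr5:111496033-111512590, minus strand), a cytosolic carrier of cholesterol, had 88.1 and 84.9 CPM in MET+ against 33.6 and 31.3 CPM in MET-KO cells. Its fall was of about the size of that of SREBF1 (log2 fold change -1.42, SE 0.11, adjusted p = 6.49e-13), on chromosome 5, whose median was -0.43.

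**Figure D3:**
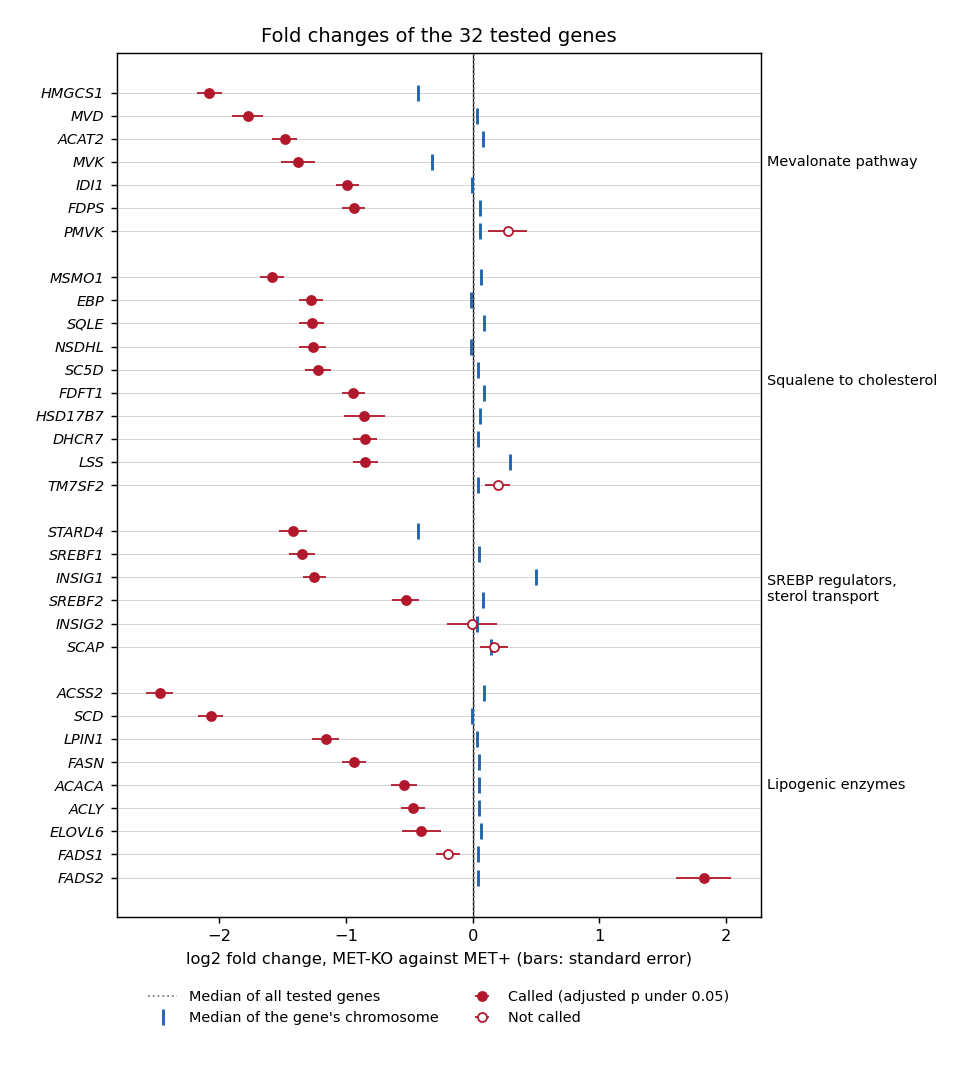
The log2 fold change of MET-KO over MET+ (horizontal axis, bars are 1 standard error) of each tested gene, filled where called, with a blue tick at the median of all tested genes on its chromosome. The 26 genes called lower lie to the left of their tick, including INSIG1 on chromosome 7, whose tick stands at 0.50.

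The 9 lipogenic enzymes were the most varied, with 7 lower, 1 higher, 1 not called (88.9% called) and a median log2 fold change of -0.54. ACSS2 (ENSG00000131069, chr20:34872146-34927962, plus strand), which makes acetyl-CoA from acetate, had 189 and 183 CPM in MET+ against 31.6 and 35.4 CPM in MET-KO cells. Its 5.55-fold fall was the largest of all 32 genes (log2 fold change -2.47, SE 0.11, adjusted p = 4.79e-20). ACLY, which makes the same product from citrate, had 699 and 652 CPM in MET+ against 513 and 462 CPM in MET-KO cells and a smaller fall (log2 fold change -0.47, SE 0.09, adjusted p = 5.51e-05). The acetyl-CoA carboxylase gene ACACA went from 108 ± 1.37 to 74.1 ± 6.91 CPM (SD, n = 2 each), with a log2 fold change of -0.54 (adjusted p = 2.93e-05), a fall of similar size to that of ACLY. The fatty acid synthase gene FASN fell further, from 833 ± 11.8 to 436 ± 36.9 CPM (SD, n = 2 each), with a log2 fold change of -0.94 (adjusted p = 1.84e-10).

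SCD (ENSG00000099194, chr10:100347124-100364834, plus strand), the desaturase that makes oleate from stearate, had 1840.2 and 1788 CPM in MET+ against 453 and 412 CPM in MET-KO cells. It was the most abundant of the 33 in MET+ cells and fell about as far as HMGCS1 (log2 fold change -2.07, SE 0.10, adjusted p = 6.81e-19). SCD5, a second desaturase that is not among the 33, had a log2 fold change of 0.63 (adjusted p = 1.56e-05), and the level of SCD was 46.8 and 46.7 times that of SCD5 in MET+ and 7.71 and 6.70 times in MET-KO cells. LPIN1 (ENSG00000134324, chr2:11677595-11827409, plus strand), a phosphatidate phosphatase, had 103 and 106 CPM in MET+ against 43.6 and 50.01 CPM in MET-KO cells. The groups were apart (log2 fold change -1.16, SE 0.11, adjusted p = 3.05e-11). The elongase gene ELOVL6 was low, at 26.8 and 23.3 CPM in MET+ against 19.97 and 17.7 CPM in MET-KO cells. Its call was the weakest (log2 fold change -0.41, SE 0.15, adjusted p = 0.0258) and was lost with DESeq2's Wald test (adjusted p = 0.114), with thinning to the smallest library (adjusted p = 0.0745), with scaling by library totals alone, without the first MET+ library (adjusted p = 0.159) and without the second MET-KO library (adjusted p = 0.187), the highest of its alternatives.

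FADS2 was the only one of the 32 that rose. FADS2 (ENSG00000134824, chr11:61792980-61867354, plus strand), the delta-6 desaturase of polyunsaturated fatty acid synthesis, had 37 and 57 counts (4.46 and 5.84 CPM) in MET+ against 210 and 177 counts (20.6 and 16.3 CPM) in MET-KO cells. The groups lay far apart, and the level was 3.54-fold higher in MET-KO cells (log2 fold change 1.82, SE 0.22, adjusted p = 1.14e-08). Its neighbour FADS1, the delta-5 desaturase that acts in the same series, had 161 and 144 CPM in MET+ against 133 and 133 CPM in MET-KO cells. FADS1 was not called (log2 fold change -0.20, SE 0.09, adjusted p = 0.0763) and stayed the more abundant of the pair, with a FADS2 to FADS1 ratio of 0.0277 and 0.0407 in MET+ and 0.155 and 0.123 in MET-KO cells. The annotation of FADS2 overlaps FADS1 on the other strand and FEN1 on its own strand, but exons of other genes cover 0% of its last 500 exonic bases on either strand.

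The fold changes were set beside those of the other tested genes on the same chromosomes. Whether gains or losses of DNA had a part in them was not tested. Several chromosomes were shifted as a whole, with medians of 0.50 for chromosome 7, 0.30 for 21, -0.32 for 12, -0.43 for 5 and 15 and -0.51 for 14. All 26 genes called lower lay below the median of their own chromosome, none above percentile 23.8 of its tested genes. Outside chromosomes 5 and 12, these chromosomes had medians of -0.015 or above, so lying below them largely followed from the call. Of the 26, 22 lie outside chromosomes 5, 7, 12, 14 and 15, with LSS on chromosome 21 among them. Taken as differences from the chromosome median, the 32 log2 fold changes had a median of -1.02, and from the median of the tested genes within 5 Mb, -1.13, with 28 of the 32 below it. Antisense genes cover part of the last 500 exonic bases of 5 members, and the strand setting of the counting is not given, so their reads cannot be told apart by position. For ACAT2 the partner was TCP1 (79.4% of these bases), which had 233 CPM in MET+ against 214 CPM in MET-KO cells and was not called. For SREBF1 it was RAI1 (100% of these bases), at 27.0 and 32.2 CPM and not called. Those of HMGCS1 and LSS were listed at 0, and that of FDPS, RUSC1-AS1, had at most 8 counts in a library.

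Genes of neighbouring pathways, taken from lists of 92 genes of which 86 were tested, were less uniform in direction. Of the 86, 40 fell and 17 rose (66.3% called), with a median log2 fold change of -0.28. Of 12 genes that process SREBP or sense sterols, 4 fell and 3 rose, and the median was -0.02. The share called, 58.3%, was near the 54.1% of all tested genes, as it was for the next list (50%). RNF145, a sterol-responsive ubiquitin ligase, fell from 95.6 to 31.4 CPM (log2 fold change -1.61), on chromosome 5, whose median was -0.43. MBTPS1, the first of the proteases that free SREBP, rose (log2 fold change 0.75, adjusted p = 2.11e-07), and MBTPS2, the second, was not called (log2 fold change 0.32, adjusted p = 0.21). Of the 6 tested genes of the LXR pathway and sterol efflux, 2 fell and 1 rose, among the former LPCAT3, a phospholipid acyltransferase (-1.12). LPCAT3 lies on chromosome 12, whose median was -0.32. Of 10 genes of sterol uptake, release and storage, 5 fell and 4 rose (90% called). The 3 that rose by over 2-fold were the lysosomal acid lipase gene LIPA, from 27.9 to 68.3 CPM (1.29), the cholesterol esterifying enzyme gene SOAT1, from 17.7 to 37.9 CPM (1.10), and the sterol transfer gene GRAMD1A, from 16.4 to 34.3 CPM (1.06).

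Isoprenoid branches of the pathway had 7 of 13 genes lower and 1 higher, with a median of -0.39. The share called, 61.5%, was not far from the 54.1% of all tested genes. FNTB, a farnesyltransferase subunit, fell from 25.7 to 9.89 CPM (-1.37), and COQ2, of coenzyme Q synthesis, from 156 to 62.2 CPM (-1.33). Genes of fatty acid elongation, activation and supply had 12 of 18 lower and 2 higher (77.8% called), with a median of -0.42. The acyl-CoA synthetase genes ACSL1 (-1.44) and ACSL3 (-1.32) and the elongase gene ELOVL7 (-1.27) fell most, and ACSL3 went from 309 to 124 CPM. FNTB lies on chromosome 14 and ELOVL7 on chromosome 5, whose medians were -0.51 and -0.43. FADS3, which adjoins FADS2 on chromosome 11, rose from 20.2 to 47.2 CPM (1.22).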

How the data were processed

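RNA of 2 MET+ and 2 MET-KO samples was sequenced by QuantSeq 3' (FWD kit). The authors deposited raw counts of reads per gene, without normalization; all such columns were used. The submitters' processing notes name bcl2fastq, cutadapt 1.16, FastQC 0.11.7, MultiQC 1.5, STAR 2.5.4a, featureCounts 1.6.2, DESeq2 1.18.1 and build GRCh38, but the annotation, the strand setting and any use of molecular identifiers in counting are not given in the sources used here, so PCR copies may be included. The 99 spike-in rows held 0 counts and were left out. Symbols came from GENCODE 29, which held 58552 of the 58825 gene IDs.

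Of 23153 genes with a count, filterByExpr of edgeR 4.0.16 (R 4.3.3) kept 13801. They were scaled by TMM (factors 0.949 to 1.06) and tested by edgeR's quasi-likelihood test with the group as the only term and Benjamini-Hochberg adjustment at 0.05. The standard error is the log2 fold change over the root of F. With 2 replicates per group, p-values rest on the spread between these samples, which may in part be technical, and on the variance shared between genes. If both MET-KO libraries came from 1 clone, this spread holds no variation between clones. The scripts were tested on simulated data. Alternatives were size factors of DESeq2 1.42.0, its Wald test, library totals alone, no filter on counts, a minimum of 10 counts per library, a replicate block, thinning to the smallest library, a log2 fold change of at least 1 in size, and leaving out each library.

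Members and lists were chosen with earlier results of these data known. Library by library values are given for members called with a log2 fold change of at least 1 in size, for the regulators, and for others as space allowed; from the related lists, at most 3 genes per direction with such a change and a mean log2 CPM of at least 3 are named. SCD5, MBTPS1, MBTPS2, AGPAT1, DGAT2, GPAT4, GPAM and the printed promoters were chosen after values were seen. Figures were drawn with matplotlib 3.10.9.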

Additional observations from a re-analysis of the deposited data

How the results depend on the processing

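No called member reversed direction under any alternative run. Scaling by library totals alone raised the median of all tested genes from 0.01 to 0.11 and the share of calls that were higher from 50.3% to 59.2%; it left 25 members lower and called 3 higher, adding TM7SF2 and SCAP to FADS2, and moved the related genes from 17 higher and 40 lower to 21 higher and 31 lower. A minimum of 10 counts in every library called 2 members higher (TM7SF2 added). With a log2 fold change of at least 1 in size, 3355 genes, 15 lower members, and 5 higher and 14 lower genes of the related lists were left. DESeq2's Wald test called 5760 genes, 5756 of them among the 7467, and 25 lower members. Leaving out each library gave 6289 to 7083 calls, 25 to 26 lower and 1 to 2 higher members (TM7SF2 added without MET-KO replicate 2), and a median of the members of -1.03 to -0.92; 13 to 17 related genes were higher and 33 to 40 lower. The replicate block left 26 lower and 1 higher member with 7055 calls, but same-numbered libraries did not deviate together (correlation -0.02), so the numbers do not pair them. The lower calls other than that of ELOVL6 each held under every alternative run that kept the threshold. Depth limits mainly FADS2, INSIG2, PMVK and HSD17B7, whose counts were the lowest, and 2 libraries per group limit every test.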

Other observations

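Of 17 tested genes of fatty acid oxidation, 5 fell and 4 rose in MET-KO cells by edgeR's quasi-likelihood test, and 8 were not called, with a median log2 fold change of -0.09. The share called, 52.9%, was near the 54.1% of all tested genes, which were also split evenly in direction. ACADS, the short-chain acyl-CoA dehydrogenase, had 25.1 and 38.4 CPM in MET+ and 8.12 and 11.9 CPM in MET-KO cells (log2 fold change -1.67). ETFA, a subunit of the flavoprotein that passes electrons on from these dehydrogenases, had 384 and 390.0 CPM in MET+ and 161 and 150.5 CPM in MET-KO cells (-1.31). ACADS lies on chromosome 12 and ETFA on chromosome 15, whose medians were -0.32 and -0.43. ECI2, an enoyl-CoA isomerase for unsaturated chains, went the other way, from 11.1 and 12.3 CPM to 38.3 and 41.4 CPM (1.76).

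In glycerolipid synthesis and lipid droplets, 5 of 10 tested genes fell and 2 rose, with a median of -0.30. The share called was 70%, against 54.1% of all tested genes. The acyltransferase genes GPAT3 (-1.37), AGPAT2 (-1.08) and DGAT1 (-1.18), which act at successive stages on the way to triglyceride, fell by over 2-fold each, and AGPAT2 went from 93.7 to 44.4 CPM. Other acyltransferase genes of the same stages did not share these falls. AGPAT1 (0.64) and DGAT2 (0.46) rose, and GPAT4 (-0.06) and GPAM (-0.11) were not called. The values therefore do not show a fall of each stage as a whole.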
